A study of Mus musculus with 3 samples.

Results

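Hand2-negative distal forelimb mesenchyme was taken as the barcodes that carried limb mesenchyme and distal markers, held no Hand2 UMI and showed few transcripts of p53 target genes. Each barcode needed at least 2000 detected genes and under 10% mitochondrial UMIs. Levels per barcode were UMIs per 10000 UMIs (CP10K). Members had Prrx1, Tbx5 and Twist1 summing to at least 2 CP10K, Lhx2 and Lhx9 summing to at least 2 CP10K, and Hand2 at 0 UMIs. Endothelial genes (Cdh5, Pecam1, Emcn) and ectodermal genes (Epcam, Trp63, Wnt6) each had to sum to under 1 CP10K. Barcodes with UMIs in 2 or more of 5 p53 target genes (Cdkn1a, Ano3, Eda2r, Trp53inp1, Ddit4l) were left out. The members were thus chosen by measured levels of these 17 genes, beside the gene and mitochondrial filters. The rule found 1004 members among 22501 deposited barcodes, of which 9707 passed the gene and mitochondrial filters and 4408 met the mesenchyme and exclusion criteria. There were 198 members in the control library, 264 in mutant 1 and 542 in mutant 2.

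Forelimb buds of mouse embryos at E9.5 were dissociated, frozen, thawed and sequenced as single cells with 3′ UMI libraries. The control was Esco2fl/fl (1 library) and the mutant was Esco2fl/fl;Prrx1-CreTg/0 (2 libraries), so both genotypes carried the floxed Esco2 allele and differed in the transgene. The Prrx1-Cre transgene places Cre under a promoter that is active in early limb mesenchyme, and limb ectoderm, endothelium and blood are not its targets. By the series design, a replicate pooled limb buds of 2 male samples and 1 female sample.

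Esco2 acetylates the cohesin ring and so holds sister chromatids together until mitosis. Cells that lose this cohesion can fail in mitosis and activate p53, which switches on genes of cell cycle arrest and death. In the limb bud, Lhx2 and Lhx9 are LIM homeodomain factors of the distal mesenchyme, which grows under FGFs from the overlying ectodermal ridge. Hand2 marks and patterns the posterior side, where it acts upstream of Sonic hedgehog, and Alx4 and Gli3 act on the anterior side.

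The libraries held 6527, 7219 and 8755 barcodes for control, mutant 1 and mutant 2. Members were of moderate depth, with medians of 26801.5, 28092.5 and 36870.5 UMIs per barcode and sums of 7460135, 9412866 and 23349930 UMIs. The lowest and highest member in any library held 3727 and 185640 UMIs. No member barcode sequence was shared between libraries, and Scrublet called 0, 1 and 5 members as doublets. Median mitochondrial shares were 1.72%, 4.40% and 2.54%. Members did not show the labelled balance of the sexes. Barcodes with Xist but no Y-linked UMI made up 15.7% of members in the control and 0% and 0.738% in the mutants, and Y-linked UMIs without Xist were found in 56.1%, 93.2% and 91.0%. Among all filtered barcodes the Xist-only shares were 14.9%, 2.23% and 3.29%. In erythroid barcodes they were 28.0%, 6.08% and 15.4%, so the share also differed between cell types of 1 library. Among members, sex therefore moved with genotype. The counts of called genes and the share of cells without Hand2 were also made over barcodes with a Y-linked UMI and no Xist UMI. That alternative was chosen after the data had been seen.

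Of the 4 markers of the label (Lhx2, Lhx9, Alx4 and Prrx1), 3 belong to the rule, so their levels describe the choice of members and do not check the label. All 4 exceeded 20 CPM (counts per 1000000 UMIs) in all 3 libraries. Their summed level was 1107, 1312 and 1181 CPM in members. It was 575, 626 and 525 CPM in mesenchyme with Lhx2 and Lhx9 under 2 CP10K and no Hand2 UMI, called Lhx2/Lhx9-low here. The same sum in Hand2-positive distal mesenchyme was 918, 1091 and 1044 CPM, close to that of members. Alx4 is the marker outside the rule. After thinning each barcode to 10000 UMIs, Alx4 was detected in 20.3%, 42.0% and 33.9% of members and in 17.0%, 22.7% and 22.7% of Hand2-positive cells. Erythroid barcodes, which should lack Alx4, gave 0.272%, 0% and 0.230%. Pax9, another anterior gene, was seen in 0%, 0% and 0.598% of thinned members, at or below the erythroid shares of 1.36%, 1.69% and 1.15%. Lhx2 was at 146, 172 and 177 CPM and Lhx9 at 377, 353 and 414 CPM in members, which the rule fixed as present. The cells are named here by the rule and not by an anterior position.

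The rule itself kept 3 endothelial and 3 ectodermal genes low. Without those genes, 5 endothelial markers summed to 12.1, 22.9 and 18.0 CPM and 7 ectodermal markers to 2.81, 5.21 and 4.71 CPM. Macrophage markers, which the rule did not use, summed to 5.50, 5.31 and 5.31 CPM. Cx3cr1 was the highest of them at 4.29, 2.97 and 2.74 CPM, and C1qa was at 0 UMIs in every library. Myogenic markers summed to 34.9, 46.6 and 49.3 CPM, mostly from Eya1 at 32.0, 36.4 and 32.0 CPM. Pax3 was at 0.67, 2.76 and 10.4 CPM, and Myf5 was at 0 in every library. Erythroid markers, mostly embryonic globins, summed to 562, 634 and 2409 CPM in control, mutant 1 and mutant 2. In mutant 2, 3538 of the 4497 Hba-a1 UMIs came from 1 barcode.

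The share of distal cells without Hand2 depended on depth and filters, and so did the order of the libraries. At the deposited depth, 46.4% of distal mesenchyme in the control (95% exact Clopper-Pearson interval 41.6 to 51.2), 52.1% in mutant 1 (47.6 to 56.5) and 45.4% in mutant 2 (42.5 to 48.3) had no Hand2 UMI. The mutant values lay on both sides of the control. Thinned to 10000 UMIs before the criteria were applied, the shares were 78.1%, 79.4% and 78.3%, closer together than their intervals are wide. Among barcodes of 30000 to 80000 UMIs they were 50.8% (41.8 to 59.7), 49.3% (42.3 to 56.3) and 38.1% (34.5 to 41.9), with mutant 2 below the other libraries. With at least 4000 genes and under 5% mitochondrial UMIs they were 30.3% (24.6 to 36.5), 39.0% (33.6 to 44.5) and 37.8% (34.7 to 41.0), with both mutants above the control. Over barcodes with Y-linked UMIs only they were 41.6%, 51.4% and 44.4%. Hand2-positive cells were deeper, with median UMIs of 80161, 64629 and 63401.5, so members at the deposited depth were also the shallower distal barcodes. These intervals cover counting error only, and with 1 control library no exact permutation test of 1 control against 2 mutants could reach a p of 0.05.

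The p53 criterion removed cells almost only from the mutants. It took out 3 of 201 Hand2-negative distal barcodes in the control (1.49%), 59 of 323 in mutant 1 (18.3%) and 101 of 643 in mutant 2 (15.7%). The corresponding shares among Hand2-positive distal barcodes were 1.29%, 17.6% and 14.3%. Since the criterion used these genes, the shares are given as a description.

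The values on both sides of each threshold were as follows. Members with Lhx2 and Lhx9 from 2 to under 2.5 CP10K (27, 25 and 37 barcodes) had Alx4 at 6.09, 61.3 and 35.6 CPM without TMM scaling, and barcodes from 1.5 to under 2 CP10K (26, 29 and 32 barcodes) had 13.2, 33.7 and 14.7 CPM. On the Hand2 criterion, members had Alx4 at 37.5, 49.8 and 50.6 CPM on that scale, and distal barcodes with 1 Hand2 UMI (82, 97 and 269 barcodes) had 30.1, 34.6 and 34.9 CPM. On the p53 criterion, mutant members with 1 of the 5 genes had Ccng1 at 11.8 CPM in both libraries, and barcodes with 2 of 5 (12 and 21 barcodes) had 34.9 and 23.3 CPM. Mdm2 was at 41.9 and 40.3 CPM with 1 of 5 and at 47.0 and 49.6 CPM with 2 of 5.

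Below the criterion, the summed level of the other p53 targets was near that of the control. Low levels of targets correlated with the 5 rule genes are partly set by the choice of members. The summed level of 31 further p53 target genes in barcodes with 0 of the 5 rule genes was 622, 657 and 663 CPM, and with 1 of 5 it was 602, 697 and 689 CPM. In the removed barcodes it was 2731 CPM in mutant 1 and 2743 CPM in mutant 2, against 1152 CPM over the 3 removed control barcodes. Mdm2, the ubiquitin ligase that feeds back on p53, was at 270 and 263 CPM in the removed mutant barcodes. Ccng1, a cyclin induced by p53, was at 179 and 188 CPM there. In barcodes with 0 of the 5 rule genes, Ccng1 was at 4.85, 8.09 and 8.78 CPM, above the control in both mutants. Mdm2 was at 45.7, 49.7 and 42.8 CPM in those barcodes, with the mutants on both sides of the control. The sum thus differed little between barcodes with 0 and 1 rule genes. The high Mdm2 of the removed barcodes lay in those with more than 2 rule genes, since barcodes with exactly 2 were near members.

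**Figure D1:**
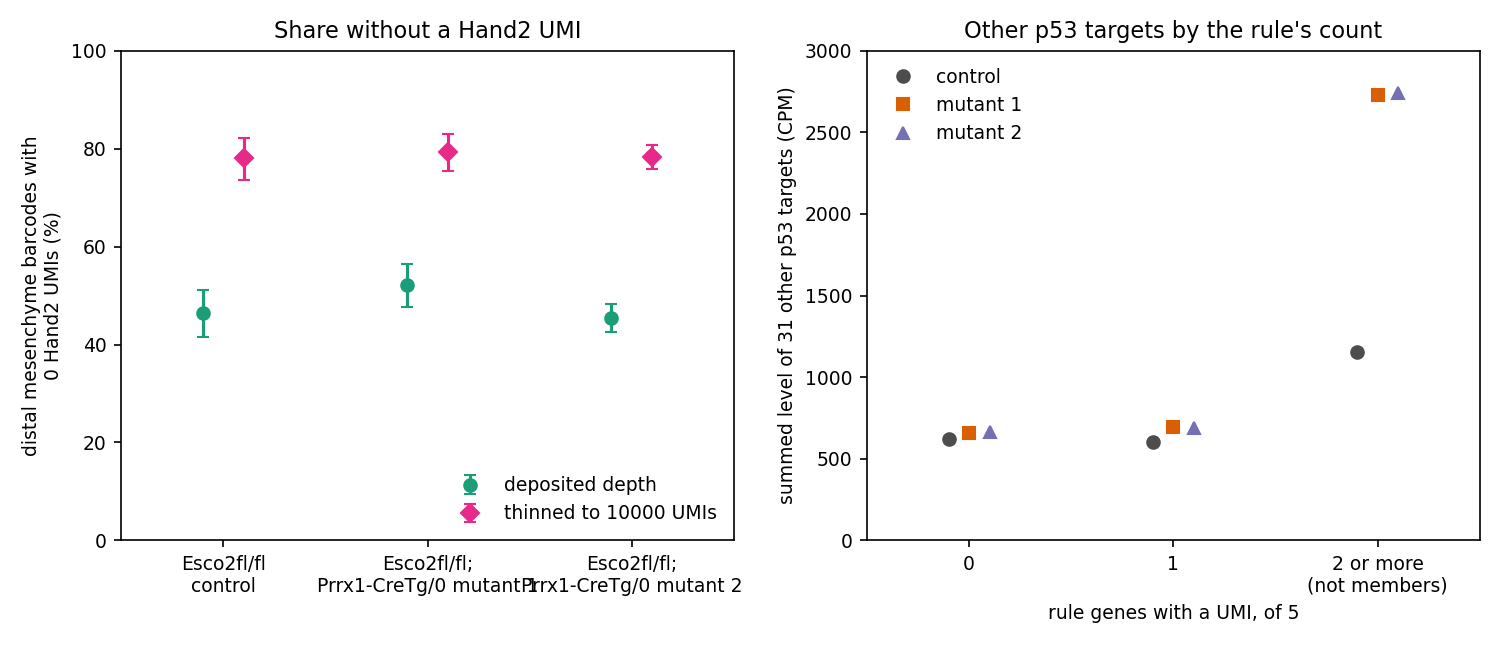
Left, percent of distal mesenchyme barcodes with 0 Hand2 UMIs in each library, at the deposited depth (circles) and after thinning to 10000 UMIs (diamonds), with 95% exact binomial intervals. Right, summed CPM of 31 p53 targets outside the rule, by how many of the 5 rule genes had a UMI: members (0 or 1) sit between 602 and 697 CPM in all 3 libraries, while the removed mutant barcodes reach 2731 and 2743 CPM.

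The members left after that criterion were compared between genotypes on UMIs summed per library. Esco2, the targeted gene (GRCm38 chr14:65819038-65833994), was at 28.9, 22.2 and 19.9 CPM in control, mutant 1 and mutant 2. The log2 fold change was -0.46 (SE 0.33), which edgeR's quasi-likelihood test did not call. The 3′ UMIs do not show whether the floxed part was deleted, so this level does not check the labels. The feature named CRE, the 1 feature without an Ensembl gene ID, was detected in 0 of 172 thinned control members. A count of 0 allows a share of cells with a UMI of up to 1.74% (3 counts), and the exact upper bound is 2.12%. It was detected in 2.04% (0.666 to 4.70) and 1.79% (0.823 to 3.38) of thinned mutant members, so a difference was not detectable after thinning. Without thinning the shares were 0%, 3.79% and 6.09%, against 0%, 0.169% and 0% of erythroid barcodes. Of 18 cohesin genes tested 0 were called by edgeR, beside 0.390% of all genes tested, and their median log2 change was 0.01.

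Few genes differed between mutant and control members. edgeR called 16 genes higher (0.160% of the 10010 tested) and 23 lower (0.230%) at a Benjamini-Hochberg adjusted p under 0.05, 39 in all (0.390%). The genes higher in the mutants included the retinoic acid-degrading enzyme Cyp26b1, the thyroid hormone receptor Thrb, the transcriptional corepressor Runx1t1, the zinc finger factor Bcl11b and the membrane peptidase Mme. Those lower included the homeodomain protein Hopx, the urokinase receptor Plaur, the secreted factor Ndnf and the transcript Gm10036. The median log2 fold change over all genes was -0.01, and 291 genes passed an unadjusted p under 0.05. DESeq2 called 1 gene (Gm10036), and edgeR with the prior degrees of freedom set to 4 called 0, with 108 at an unadjusted p under 0.05. The fit has 1 residual degree of freedom and the control has no replicate, so its own spread was not measured. edgeR's estimated prior degrees of freedom were infinite here and in both tests of interaction below. Each gene's variance was thus set by the trend over genes, and the SEs hold no spread measured for that gene.

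Cyp26b1 (chr6:84571414-84593908), which clears retinoic acid from the distal limb, was at 6.06, 14.8 and 21.6 CPM in control, mutant 1 and mutant 2. Both mutant libraries lay above the control, at a log2 fold change of 1.59 (SE 0.41, edgeR adjusted p = 0.0266). Its UMIs were spread over many cells, with 22 of 198 control members, 72 of 264 in mutant 1 and 198 of 542 in mutant 2 holding at least 1. After thinning, 4.07% (1.65 to 8.21), 12.7% (8.76 to 17.5) and 16.5% (13.4 to 20.1) of members had a UMI, against 0%, 0.845% and 0.460% of erythroid barcodes. Cyp26b1 was the only called member of 9 tested retinoic acid genes, whose median was 0.12. It was called without each gene's top cell and missed the threshold over thinned barcodes and over barcodes with Y-linked UMIs only.

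Thrb (chr14:17660261-18038090) was at 5.64, 23.3 and 15.0 CPM in control, mutant 1 and mutant 2. Its log2 fold change was 1.75 (SE 0.41, edgeR adjusted p = 0.00828), and it remained called over thinned barcodes, over barcodes with Y-linked UMIs only and without its top cell. Runx1t1 (chr4:13743436-13893649) was at 3.85, 14.6 and 14.4 CPM, a log2 fold change of 1.91 (SE 0.44). Zswim5 was at 3.44, 18.9 and 10.3 CPM (2.07, SE 0.45). In all 3 genes both mutant libraries were above the 1 control library, as was the case for 27.3% of all genes tested. The genes named here were also chosen for moving the same way in both mutants.

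Bcl11b (chr12:107910403-108003602) was at 1.93, 10.7 and 7.84 CPM, a log2 fold change of 2.25 (SE 0.53). Mme, the neprilysin peptidase, was at 1.24, 6.00 and 9.79 CPM (2.68, SE 0.57). The adhesion genes Cntn5 and Cdh3 and the neuron navigator Nav3 rose as well, by 2.02, 1.72 and 1.99 on the log2 scale. Most alternative settings did not call them: Cntn5 was called in 6 of 15, Cdh3 in 5 of 15 and Nav3 in 4 of the 11 that tested it. The rest of the 16 were the noncoding or unnamed transcripts Gm48742, Gm26737, Gm26870 and C77080, the taste receptor gene Tas1r1, Eif3j2 and Hba-a1. Tas1r1 rested on 1 control UMI against 256 mutant UMIs, a ratio of 58.3 with an exact counting interval from 10.4 to 2311, and its log2 fold change was -0.19 with Hand2 under 0.5 CP10K as the criterion. Hba-a1 (35.9, 34.5 and 199 CPM) was not above the control in mutant 1, and its log2 fold change of 1.71 was -0.059 without mutant 2 and was not called without its top cell.

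Gm10036 fell, with 83.6 CPM in the control library and 5.10 and 10.1 CPM in the mutants (log2 fold change -3.42, SE 0.33). Without a test, it was also lower in mutant erythroid cells (log2 -1.85 and -0.13), endothelium (-2.82 and -0.96) and ectoderm (-2.35 and -1.60), which Prrx1-Cre does not target. Hmga1b was lower and Eif3j2 higher in all 3 of those cell types too. Gm10036, Hmga1b and Eif3j2 resemble other genes closely, so reads may be split between copies and their levels are uncertain.

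Hopx (chr5:77086988-77115121), a homeodomain protein without DNA binding of its own, was at 18.7, 3.40 and 4.39 CPM in control, mutant 1 and mutant 2. Both mutants were lower, at a log2 fold change of -2.24 (SE 0.39, edgeR adjusted p = 9.66e-06), and 47 control members held its UMIs. Plaur (chr7:24462484-24475968) was at 39.1, 14.3 and 14.3 CPM, with 101 of its 284 control UMIs in 1 cell, and was not called without each gene's top cell. Ndnf (chr6:65671590-65712326), a secreted fibronectin-domain protein, was at 30.1, 20.3 and 4.74 CPM, so most of its fall was in mutant 2. The potassium channel gene Kcnh7, the cytokine receptor Il31ra and the cell adhesion gene Opcml fell by 1.53, 1.52 and 1.35 on the log2 scale. With at least 4000 genes and under 5% mitochondrial UMIs, Kcnh7 turned to 0.86.

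Xist and Tsix were the genes with the largest fall. Xist was at 413, 0.500 and 7.71 CPM in control, mutant 1 and mutant 2. For both genes, sex and genotype cannot be told apart. Over barcodes with a Y-linked UMI and no Xist UMI, 54 genes were called, of which 23 were among the 39. Several other calls rested largely on single cells, in the control for genes called lower and in mutant libraries for genes called higher. All 108 Mgat4e UMIs of the control, 118 of 130 for Slc35d2, 83 of 94 for Tenm1, 103 of 134 for Stat2, 137 of 188 for Gm29394, 74 of 112 for Cdhr1 and 63 of 99 for Neb came from 1 cell each. In mutant 1, 95 of 182 UMIs of C77080, 69 of 120 of Gm26870 and 40 of 79 of Gm26737 came from 1 cell each, as did 133 of 277 of Gm26737 in mutant 2. Gm26737 (-0.22) and Slc35d2 (0.19) changed sign after thinning, Gm29394 (0.51) in the depth window and Stat2 (0.43) with 0 UMIs in all 5 p53 genes. Without the top cell of every gene in every library, an alternative chosen after these values were seen, 21 genes were called and 20 of them were shared with the 39. Thinning all barcodes to 10000 UMIs and applying the rule anew left 23 calls, 9 of them shared.

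**Figure D2:**
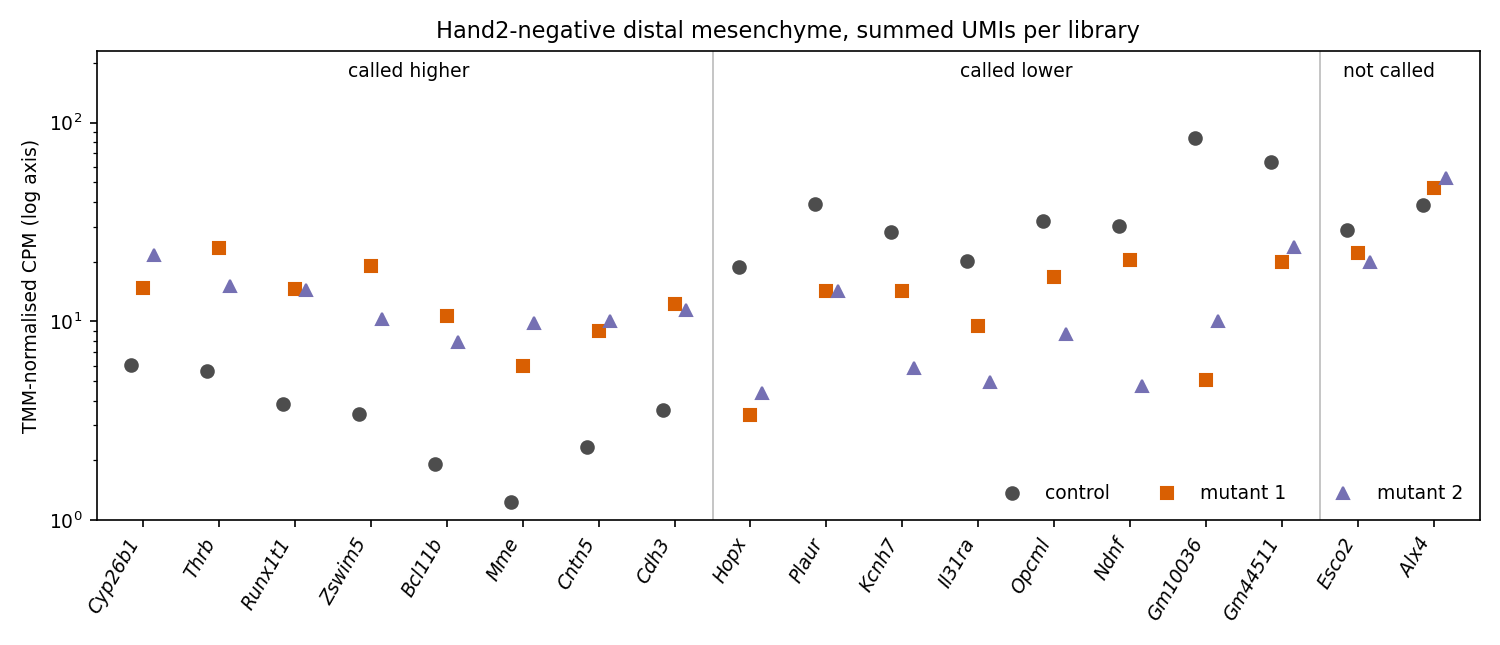
TMM-normalised CPM (log axis) of genes in Hand2-negative distal mesenchyme, 1 symbol per library (circle control, square mutant 1, triangle mutant 2), for called genes and for Esco2 and Alx4. The control symbol lies below both mutants for the 8 genes called higher and above both for the 8 called lower, and for Esco2 and Alx4 the difference was not called.

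Patterning genes are given next by their levels, since 0.390% of all genes were called and lists of this size would hold few or no calls at that share. Alx4 was at 38.5, 46.9 and 52.4 CPM in control, mutant 1 and mutant 2 (log2 fold change 0.37, SE 0.37, not called). Of 9 anterior genes tested 0 were called, with a median of 0.18, and Gas1, a hedgehog coreceptor, was at 102, 225 and 132 CPM. Of 11 distal progenitor genes 0 were called (median -0.01), with Msx1 at 233, 179 and 296 CPM and the ridge-inducing ligand Fgf10 at 214, 193 and 119 CPM. Of 4 posterior and hedgehog response genes 0 were called (median 0.36), with Hoxd11 at 4.96, 9.10 and 9.75 CPM.

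The signalling lists were read in the same way, beside 0.390% of all genes called. FGF genes (12 tested, median 0.14), BMP genes (14 tested, median -0.12) and WNT genes (13 tested, median -0.05) had 0 calls each. The WNT feedback inhibitor Nkd1 was at 104, 63.4 and 46.4 CPM (log2 -0.92, not called). Limb Hox genes had 0 calls of 13 and a median of -0.22, with Hoxb8 at 33.4, 22.5 and 15.9 CPM (log2 -0.81, not called). Among 11 vessel signalling genes 0 were called (median 0.25), although the guidance ligand Sema3c was at 60.2, 32.1 and 21.5 CPM (log2 -1.17, edgeR adjusted p = 0.111).

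For genes of the p53 response, DNA damage and mitosis, 0 calls were again near the 0.390% of all genes. Of 23 p53 targets outside the rule that were tested 0 were called, and the median was 0.09. The fitted change was positive for 13, against 49.2% of all genes tested. In both mutants 11 were above the control and 3 below, against 27.3% and 26.6% of all genes. Mdm2 was at 46.1, 44.9 and 43.7 CPM, and Ccng1 was at 5.37, 8.50 and 9.84 CPM (log2 0.78, not called). Since the criterion removed barcodes by 5 p53 genes, low levels of correlated targets are partly set by the choice of members. With those barcodes kept, 106 genes were called (77 higher, 29 lower), of which 37 were among the 39, and Ccng1 was then called.

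Of 24 DNA damage genes and 16 apoptosis genes 0 were called, with medians of 0.06 and 0.03. Of 48 genes of G2 and mitosis 0 were called (median 0.16), and 29 were above the control in both mutants, against 27.3% of all genes tested. Cenpf, a kinetochore protein, was at 195, 278 and 296 CPM. Of 32 S phase genes 0 were called (median -0.10). Of 24 spindle checkpoint genes 0 were called (median 0.09).

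Glycolysis and ribosome biogenesis genes had lower medians than the -0.01 of all genes tested, with 0 calls beside 0.390% of all genes. Of 22 glycolysis and hypoxia genes the median was -0.37 and 12 were below the control in both mutants, against 26.6% of all genes. Eno1, the glycolytic enolase, was at 1112, 560 and 637 CPM (log2 -0.89, not called). Of 24 ribosome biogenesis genes the median was -0.16 and 15 were below the control in both mutants. Of 14 skeletal and matrix genes the median was 0.25, with the chondrogenic factor Sox9 at 11.7, 26.2 and 23.1 CPM (log2 1.07, edgeR adjusted p = 0.414). Both mutants are set against the same control library in these counts. Imprinted growth genes (14 tested, median 0.05), integrated stress response genes (12 tested, median -0.12) and genes induced by dissociation (10 tested, median 0.17) had 0 calls, and proximal genes (8 tested, median 0.11) had 0 as well.

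**Figure D3:**
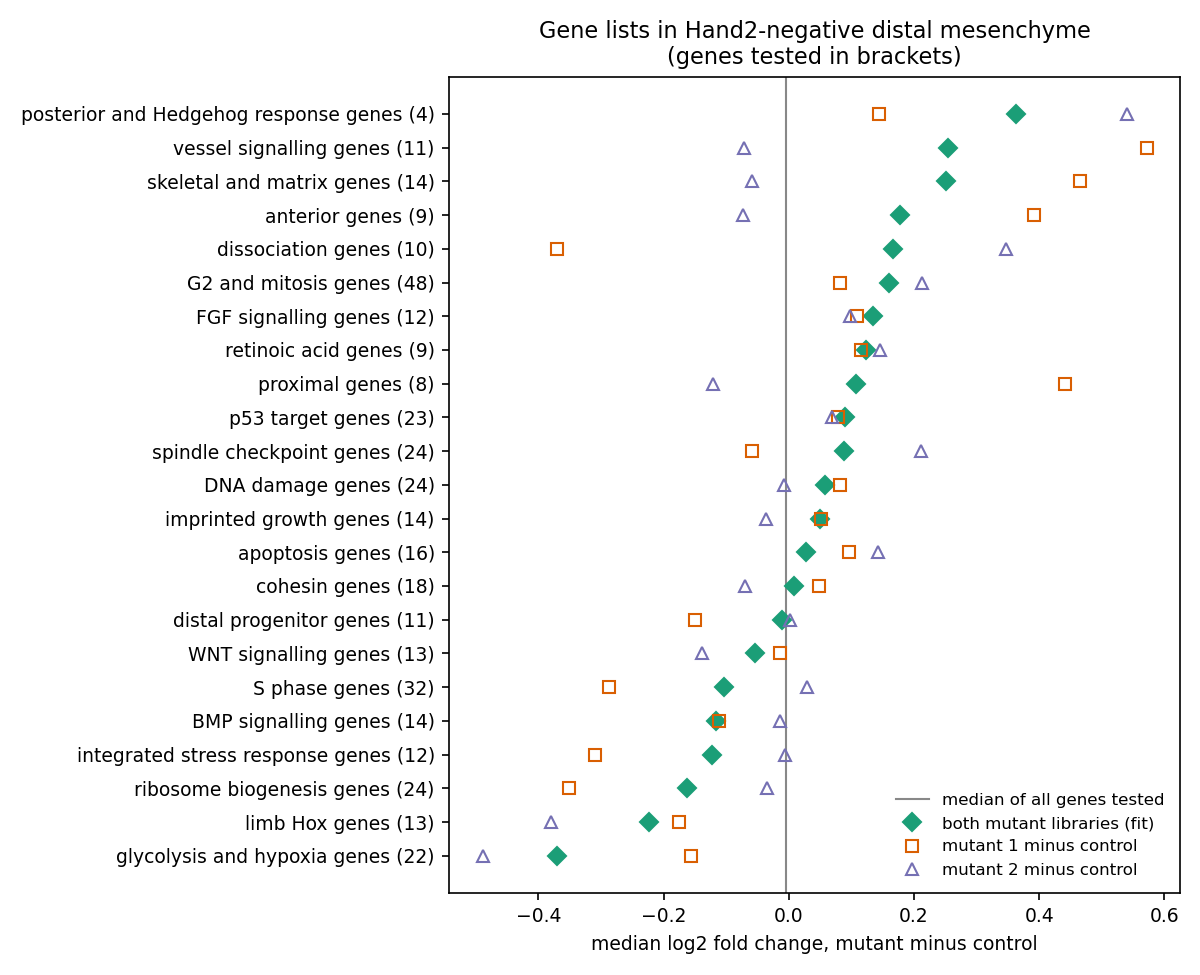
Median log2 fold change (mutant minus control) of each gene list in Hand2-negative distal mesenchyme, for the fit of both mutants (diamonds) and for mutant 1 (squares) and mutant 2 (triangles) each against the control. The vertical line is the median of all genes tested (-0.01), and lists run from -0.37 for glycolysis and hypoxia to 0.36 for posterior and hedgehog response genes.

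Members were next set against Hand2-positive distal cells of the same library, to see what else differs across the Hand2 criterion. edgeR with library as a block called 1953 genes higher in members (19.7% of 9925 tested) and 2134 lower (21.5%), 41.2% of all. With library totals in place of TMM factors the split was 2809 higher and 1073 lower, with a median shift from -0.01 to 0.08. Fewer genes were called at matched depth. With barcodes thinned to 10000 UMIs 99 genes were called, and 397 were called among barcodes of 30000 to 80000 UMIs. The rule was applied anew to the thinned counts, so membership changed along with depth. The thinned Hand2-negative group held 307, 385 and 893 barcodes, of which 148, 211 and 453 were members. The thinned Hand2-positive group held 86, 100 and 247. Shares of cells with a UMI after thinning keep the groups chosen at the deposited depth. Across all 3 settings 54 genes were called higher and 14 lower (2.76% and 0.656% of the calls at deposited depth), and these are described first.

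The 54 included receptors and ligands of cell sorting and factors of limb patterning. The ephrin receptor Epha7 (chr4:28813131-28967499) was at 110, 160 and 108 CPM in members and 46.9, 80.0 and 50.3 CPM in Hand2-positive cells, for control, mutant 1 and mutant 2. Members were higher in each library, at log2 differences of 1.11 at deposited depth, 0.97 in the depth window and 0.46 after thinning. Lmx1b (chr2:33560965-33640511), the LIM homeodomain factor of dorsal limb mesenchyme, was at 277, 355 and 276 CPM against 165, 162 and 175 CPM. Its log2 difference was 0.84, 0.52 and 0.61 in the same order. After thinning, Lmx1b was detected in 54.7%, 70.2% and 69.3% of members and 50.9%, 51.2% and 53% of Hand2-positive cells, so the control pair differed least.

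Rapgef5, a guanine exchange factor, had log2 differences of 1.5, 1.49 and 1.86 at deposited depth, in the window and after thinning. The ephrin ligand Efnb2 had 0.83, 0.62 and 0.59, the cadherin Cdh6 had 0.96, 0.85 and 0.64, and the chondrogenic factor Sox6 had 0.75, 0.50 and 0.42. Gli3 (chr13:15463235-15730026), the hedgehog-regulated repressor, was at 967, 1287 and 901 CPM in members and 604, 831 and 654 CPM in Hand2-positive cells. It was called higher at 0.59, 0.46 and 0.25. All these genes were higher in members in each of the 3 libraries, and after thinning the difference was smaller than at deposited depth for each of them but Rapgef5.

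Alx4 (chr2:93642384-93681339) was at 37.4, 46.2 and 49.8 CPM in members and 26.3, 26.9 and 27.8 CPM in Hand2-positive cells. Members were higher in each library, with a log2 difference of 0.73 (SE 0.08) and 1.01 in the depth window. After thinning the difference was 0.63 and missed the threshold (edgeR adjusted p = 0.0979). At the deposited depth, 6 of 9 anterior genes tested were called higher, beside 19.7% of all genes. They were the hedgehog coreceptors Cdon, Boc and Gas1, and Alx4, Gli3 and Irx3. Alx1 was called lower (log2 -0.33), beside 21.5% of all genes. Gli3 was called in 17 of 17 alternative settings, and Alx4, Cdon, Boc and Gas1 in 16 of 17 each. Cdon, like Alx4, missed the threshold after thinning. Gas1 and Boc also missed it in a setting. The highest adjusted p over the alternatives (edgeR or DESeq2) was 0.150 for both Cdon and Gas1 and 0.598 for Boc. Cyp26b1 was also higher in members, at 0.74, and missed the threshold after thinning.

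The 14 genes lower in all 3 settings included 2 Hox genes, a WNT inhibitor and BMP-responsive genes. Dkk1 (chr19:30545863-30549665), a secreted WNT inhibitor, was at 11.2, 5.42 and 9.53 CPM in members and 43.1, 29.8 and 26.5 CPM in Hand2-positive cells. Members were lower in each library, at log2 differences of -1.86, -1.61 and -0.90 at deposited depth, in the window and after thinning. Hoxc8 and Hoxb9 were lower by log2 differences of -1.80 and -1.51 at deposited depth. Tnc, a matrix glycoprotein, had -1.78, the cell cycle inhibitor Cdkn1c -0.82, the BMP pseudoreceptor Bambi -0.71, the BMP target Id3 -0.63 and the T-box gene Tbx3, expressed at limb margins, -0.55.

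At the deposited depth, 10 of 14 Hox genes tested were lower in members and 1, Hoxc5, higher, beside 21.5% and 19.7% of all genes. Hoxd10 and Hoxd11, which mark the posterior side early, had log2 differences of -0.60 and -0.84. Hoxd11 missed the threshold after thinning. Hoxd10 was called in 16 of 17 alternative settings. Over all 17, its difference was as small as -0.16 and its adjusted p (edgeR or DESeq2) as high as 0.777. Of 4 posterior and hedgehog response genes 3 were lower, beside 21.5% of all genes. Ptch1, the hedgehog receptor and target, was at 29.0, 34.0 and 41.8 CPM in members and 24.4, 48.3 and 54.2 CPM in Hand2-positive cells, so it was lower only in the mutant libraries (log2 -0.26). Ptch1 was called lower in only 7 of 17 alternative settings.

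Lists of cell state were lower at the deposited depth, beside the difference in depth. Of 48 G2 and mitosis genes 25 were lower, of 24 spindle checkpoint genes 16, and of 22 glycolysis and hypoxia genes 11, with 0 higher in each, beside 21.5% of all genes lower and 19.7% higher. All 6 erythroid markers tested were lower, with sums of 562, 634 and 2409 CPM in members and 688, 5743 and 2327 CPM in Hand2-positive cells. The part of depth in these lists was not tested.

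**Figure D4:**
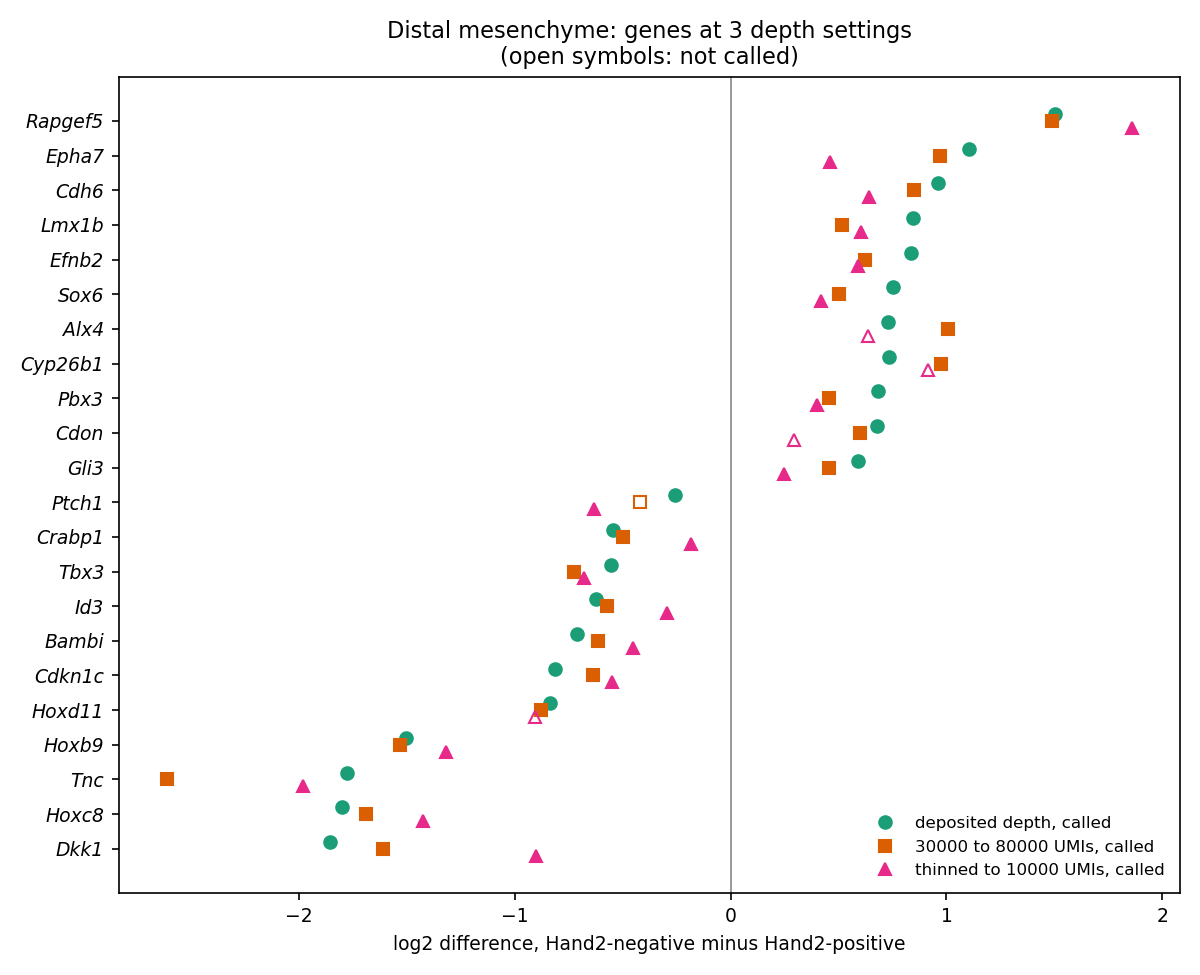
Log2 difference between members and Hand2-positive distal cells for 22 genes under 3 depth settings (circles deposited depth, squares 30000 to 80000 UMIs, triangles thinned to 10000 UMIs), with filled symbols where edgeR called the gene. Each gene keeps its sign under the 3 settings, Ptch1 is open in the depth window, and Alx4, Cyp26b1, Cdon and Hoxd11 are open after thinning.

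Against Lhx2/Lhx9-low mesenchyme, edgeR called 257 genes higher in members (2.51% of 10229 tested) and 629 lower (6.15%). These cells were closer to members in depth (medians of 17772, 19579 and 20381 UMIs), and 152 of the 257 and 318 of the 629 were called at all 3 depth settings (59.1% and 50.6%). Distal progenitor and FGF response genes were higher in members. Retinoic acid synthesis, matrix and flank genes were lower. The Lhx2/Lhx9-low pool also held more markers of other cells: summed erythroid markers of 11637, 9767 and 11991 CPM, myogenic markers of 97.3, 211 and 211 CPM and flank markers of 48.1, 158 and 71.9 CPM. The part of those cells in the genes lower in members was not tested.

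Of 12 distal progenitor genes, 9 were called higher in members and 1 (Jag1) lower, beside 8.66% of all genes called in either direction. Msx1, a homeobox factor of the progress zone, was at 235, 180 and 298 CPM in members and 130, 64.6 and 97.0 CPM in the other cells, a log2 difference of 1.32. Of 12 FGF signalling genes 7 were higher and 1 lower, beside 2.51% and 6.15% of all genes. The FGF feedback genes Spry4, Il17rd and Dusp6 had log2 differences of 1.08, 1.08 and 0.94. Il17rd was at 184, 251 and 218 CPM in members and 89.9, 129 and 91.3 CPM in the other cells, higher in members in each library.

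Hox genes of the A and D clusters were higher in members, and some of the B and C clusters lower. Hoxd10 was at 64.2, 51.4 and 96.5 CPM against 15.6, 5.32 and 27.5 CPM (log2 2.19), and Hoxa10 had a log2 difference of 1.85. In all, 7 of 14 Hox genes were higher and 4 (Hoxc8, Hoxb9, Hoxc5 and Hoxb6) were lower, beside the same shares of 2.51% and 6.15%. Among genes with the smallest p were Tfap2c (chr2:172549593-172558622), an AP-2 factor, at 70.0, 66.6 and 72.8 CPM against 12.2, 13.0 and 16.2 CPM, and Tbx15, at 133, 229 and 263 CPM against 28.3, 55.3 and 76.1 CPM. Crym, Zic5 and Sall3 followed with log2 differences of 3.59, 2.97 and 1.95.

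The genes that were higher in mutant members did not share 1 side of this comparison. Cyp26b1 was at 6.10, 14.9 and 21.7 CPM in members and 1.56, 3.24 and 3.49 CPM in Lhx2/Lhx9-low cells (log2 2.35), and Thrb was higher in members as well (2.86). Runx1t1 was lower in members (log2 -3.20), at 3.88, 14.7 and 14.5 CPM against 62.1, 134 and 108 CPM. Both directions are thus present among the genes called higher in the mutants.

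Genes lower in members included the retinoic acid-synthesising enzyme Aldh1a2 (log2 -4.35), at 1.66, 1.20 and 1.29 CPM in members and 30.1, 54.6 and 14.8 CPM in the other cells. The proximal factors Meis1, Meis2 and Emx2 had log2 differences of -0.63, -0.94 and -2.02. Meis2 was at 837, 1074 and 639 CPM in members and 1461, 1987 and 1399 CPM in the other cells. Of 16 skeletal and matrix genes 11 were lower, with Tnc at -4.81, Col2a1 at -2.23 and Sox9 at -0.80, and 1, Sox5, was higher, beside 6.15% and 2.51% of all genes.

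Igfbp5, an IGF-binding protein, was at 4.71, 6.42 and 4.01 CPM in members and 79.2, 116 and 110 CPM in the other cells (log2 -4.40). Wt1 and Wnt2, genes of coelomic epithelium and flank mesoderm, and Pax3, a gene of migrating muscle precursors, had -5.61, -5.23 and -3.95. At deposited depth Meis1 and Meis2 were also higher in members than in Hand2-positive cells (log2 0.53 and 0.38). After thinning these differences were 0.09 and 0.07 and were not called. In the thinned control, Meis1 was detected in 61.6% of members and 69.6% of Hand2-positive cells, the opposite direction.

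**Figure D5:**
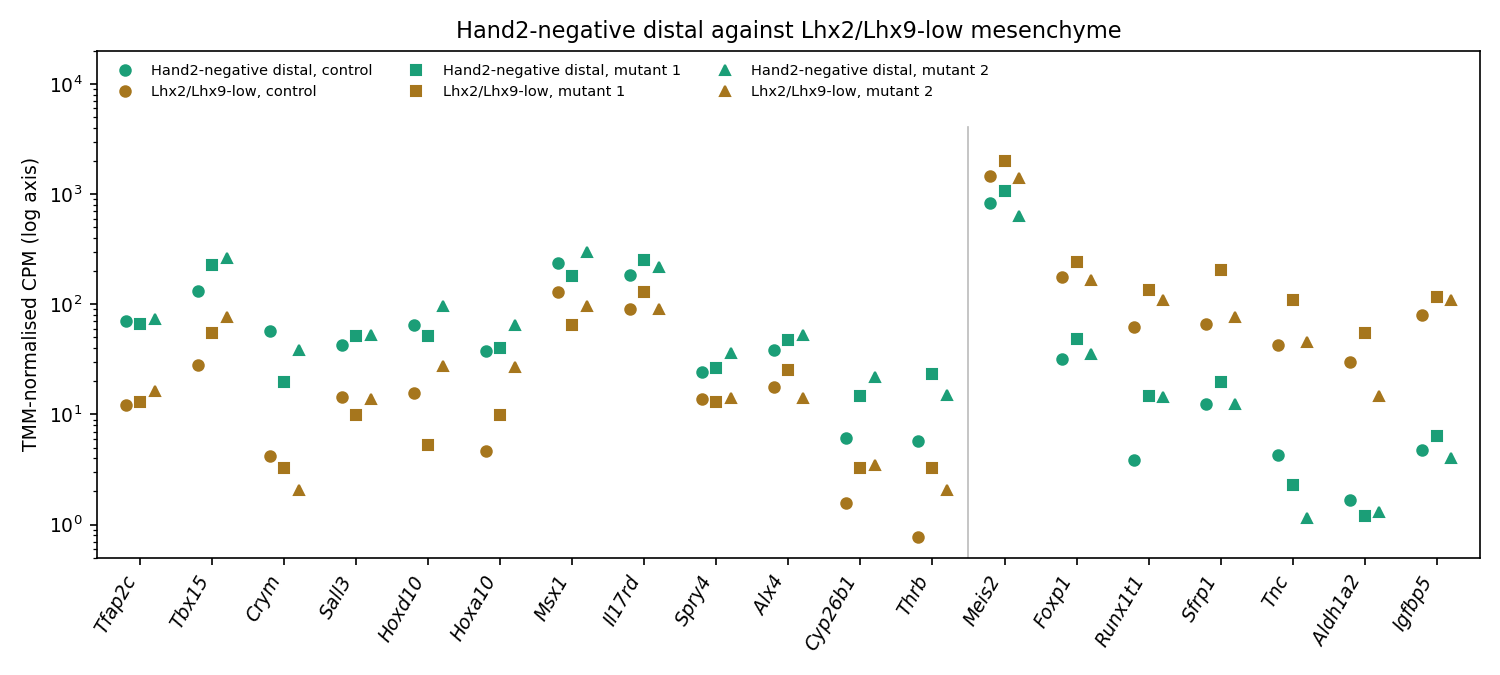
TMM-normalised CPM (log axis) in members (green) and Lhx2/Lhx9-low mesenchyme (brown) of each library (circle control, square mutant 1, triangle mutant 2). For the 12 genes left of the line each library has members above the other cells, and for the 7 genes on the right below.

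Whether the mutant effect differed between members and the other mesenchyme was tested as an interaction. edgeR called 84 genes against Hand2-positive cells (0.846% of 9925), with 47 higher (0.474%) and 37 lower (0.373%), and 84 against Lhx2/Lhx9-low cells (0.821% of 10229), with 38 higher (0.371%) and 46 lower (0.450%). At an unadjusted p under 0.05 there were 462 and 583. DESeq2 called 8 and 3, and a prior of 4 degrees of freedom left 0 in both. Plaur and Ndnf were among the genes with a difference in effect between members and Lhx2/Lhx9-low cells. Plaur was at 39.4, 14.4 and 14.4 CPM in members and at 14.3, 18.5 and 37.2 CPM in Lhx2/Lhx9-low cells, opposite directions in both mutants (interaction -2.42). Ndnf was at 30.4, 20.4 and 4.77 CPM in members and 93.5, 131 and 74.4 CPM in Lhx2/Lhx9-low cells (interaction -1.64). The rise of Cyp26b1 in the mutants was not shown to be particular to members: its interaction was 0.12 (SE 0.35) against Hand2-positive cells, where Cyp26b1 was at 3.79, 8.19 and 12.5 CPM, and 0.48 (SE 0.75) against Lhx2/Lhx9-low cells. The interaction of Hopx was -0.98 against Hand2-positive cells (SE 0.29, edgeR adjusted p = 0.0876) and -0.75 against Lhx2/Lhx9-low cells (SE 0.55), neither called.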

How the data were processed

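The authors deposited UMI counts per gene and barcode for 3 libraries. Per the submitters' processing notes, Cell Ranger 7.0.0 and Seurat 4.0.0 were used with the mm10 genome (GRCm38). The annotation release was not given in the sources used here, and coordinates are those of GENCODE M21, whose gene IDs matched 31011 of 31054 features. The members and the gene lists were chosen with earlier results of these data known.

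UMIs of the barcodes that met the rule were summed per library. Genes that averaged 5 CPM or more over the sums were tested with edgeR 4.0.16 (TMM, quasi-likelihood, Benjamini-Hochberg over all genes tested), with genotype as the term, or with library as a block and region or the region by genotype interaction as the term. CPM values in a comparison are TMM-scaled within it, and marker sums are not. SEs are the log2 change divided by the root of F, and in the genotype and interaction fits they rest on the variance trend over genes. Genes of the rule were not counted. Region comparisons took Hand2 at 1 UMI or more, or Lhx2+Lhx9 under 2 CP10K, with the rest of the rule unchanged. The fits were also run on simulated counts with known changes, and those results are not given here. DESeq2 1.42.0 was an alternative. Shares have exact 95% Clopper-Pearson intervals. Shares of cells were taken after thinning to 10000 UMIs, leaving out 26, 19 and 40 shallower members of control, mutant 1 and mutant 2. Scrublet was run in scanpy 1.11.5, and doublets were kept except in 1 alternative. The named genes were the 10 with the smallest p in each direction among those called and moving the same way in each library, the called list members or otherwise up to 3 with the largest change, the 5 with the smallest p in each direction of an interaction and the 15 with the largest variation among cells. Results for 2 of the genes so chosen are not reported here. The alternatives were other filters, scalings, depths and criteria, and leaving out each mutant library.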

Additional observations from a re-analysis of the deposited data

Results flagged for a closer look

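The mutant effect differed between members and Hand2-positive distal cells for 84 genes by edgeR's interaction test. The 5 genes with the smallest p in each direction are given here as log2 interactions (the effect in members minus the effect in the other cells). Higher effects in members were found for Tas1r1 (6.67), Gm29585 (2.05), Lnx1 (2.68), Gdpd1 (1.90) and Tex21 (4.12), and lower effects for Slc35d2 (-3.27), Xist (-1.93), Kcnh7 (-1.90), Mdga2 (-1.76) and Arhgap4 (-2.42). Tas1r1 was at 0.134, 10.5 and 6.28 CPM in members and 10.5, 7.25 and 4.88 CPM in Hand2-positive cells, where the control member value is 1 UMI. Gdpd1 was at 16.0, 37.4 and 25.3 CPM in members and 45.1, 21 and 23.9 CPM in Hand2-positive cells, opposite directions in both mutants. For Slc35d2 and Arhgap4, 118 of 130 and 72 of 90 control member UMIs came from 1 cell. The 84 calls were 43 without each gene's top cell, 13 after thinning, 129 among barcodes of 30000 to 80000 UMIs and 49 over barcodes with Y-linked UMIs only. Lnx1, Tex21 and Xist changed sign after thinning.

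The mutant effect differed between members and Lhx2/Lhx9-low mesenchyme for 84 genes by the same test. Higher effects in members were found for Exoc3l2 (5.74), Mt1 (2.51), Gm4869 (3.45), Tas1r1 (7.05) and Ostm1 (4.19), and lower effects for Xist (-4.84), Plaur (-2.42), Tsix (-3.92), Ndnf (-1.64) and Kcnh7 (-1.95). Mt1 was at 7.07, 12.5 and 22.2 CPM in members and 117, 47.2 and 52.6 CPM in Lhx2/Lhx9-low cells, and 273 of its 497 member UMIs in mutant 2 came from 1 cell. Kcnh7 was at 28.4, 14.3 and 5.84 CPM in members and 298, 594 and 229 CPM in Lhx2/Lhx9-low cells.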

How the results depend on the processing

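The count of genes called between mutant and control members (39) was 1 with DESeq2, 0 with a prior of 4 degrees of freedom, 112 with a mean of at least 1 CPM, 123 without a filter, 106 without the p53 criterion, 78 with at least 4000 genes and under 5% mitochondrial UMIs, 23 after thinning, 99 with Hand2 under 0.5 CP10K and 21 without each gene's top cell. The count against Hand2-positive cells (4087) was 2465 with DESeq2, 1397 with the prior of 4, 574 with the gene and mitochondrial filter, 99 after thinning, 381 with Hand2 under 0.5 CP10K, 397 at 30000 to 80000 UMIs, 1836 with Y-linked UMIs only and from 2204 to 3768 with a mutant library left out (2204 without mutant 1). Against Lhx2/Lhx9-low cells (886) it was 1691 without a filter, 554 with the prior of 4, 2172 with Hand2 under 0.5 CP10K and 483 with Lhx2+Lhx9 at least 4 CP10K, and it went from 755 to 986 with a mutant library left out. The interaction with Hand2-positive cells (84) was 8 with DESeq2, 0 with the prior of 4, 197 with at least 1 CPM, 210 without a filter, 13 after thinning, 129 at 30000 to 80000 UMIs, 49 with Y-linked UMIs only and 43 without top cells. The interaction with Lhx2/Lhx9-low cells (84) was 3, 0 and 19 with DESeq2, the prior of 4 and at least 1 CPM, 31 with 0 UMIs in all 5 p53 genes, 174 with the gene and mitochondrial filter, 12 after thinning, 153 with Hand2 under 0.5 CP10K, 127 with Y-linked UMIs only and 32 without top cells. The cause was not tested for these, apart from the number of genes tested under a changed filter.

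The share of distal cells without Hand2 was 30.3%, 39.0% and 37.8% (control, mutant 1, mutant 2) with the gene and mitochondrial filter, 78.1%, 79.4% and 78.3% after thinning and 80.6%, 80.7% and 80.2% with Hand2 under 0.5 CP10K. With Lhx2+Lhx9 at least 4 CP10K it was 50.2%, 59.2% and 50.1%, and at 30000 to 80000 UMIs 50.8%, 49.3% and 38.1%. Without thinning, Alx4 was detected in 41.9%, 63.6% and 65.3% of members, Lmx1b in 66.7%, 77.7% and 79.7%, Cyp26b1 in 11.1%, 27.3% and 36.5%, and CRE in 6.09% in mutant 2.

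Among genes named between genotypes, these reversed in sign: Dqx1 (0.26 with the gene and mitochondrial filter, 0.43 with Y-linked UMIs only), Kcnh7 (0.86 with the gene and mitochondrial filter), Gm26737 (-0.22) and Slc35d2 (0.19) after thinning, Gm29394 (0.51 at 30000 to 80000 UMIs), Stat2 (0.43 with 0 UMIs in all 5 p53 genes), Tas1r1 (-0.19 with Hand2 under 0.5 CP10K) and Hba-a1 (from -0.059 without mutant 2 to 2.47 without mutant 1). In the interaction with Hand2-positive cells, Lnx1 (-1.01), Tex21 (-0.94) and Xist (0.77) reversed after thinning, Tas1r1 (-1.62), Tex21 (-11.51, with libraries at 0 UMIs) and Xist (0.10) with Hand2 under 0.5 CP10K, and Kcnh7 (0.10) with the gene and mitochondrial filter. In the interaction with Lhx2/Lhx9-low cells, Gm4869 reversed at 30000 to 80000 UMIs (-0.24) and without top cells (-0.99), Mt1 after thinning (-0.41) and without top cells (-0.15), and Tas1r1 after thinning (-3.98). Of all other values of named genes under an alternative, 2170 kept direction and side of the threshold, 263 kept direction and missed the threshold, 6 newly passed it and 53 without a test moved by more than their spread. The depth window, the barcodes with Y-linked UMIs only and the omission of top cells were chosen after the data had been seen. No paired analysis was possible because the control library carries no replicate number, so the groups share fewer than 2 numbers. Leaving out a mutant library gave no count between genotypes or for the interactions, since no residual degree of freedom remained. The single control library limits every comparison of genotypes.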

Other observations

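Cell-to-cell variation within members was largest for the transcript Gm42418, followed by the glypican Gpc6 and mitochondrial transcripts. Over 7982 genes in barcodes thinned to 10000 UMIs, the genes with the largest Fano factor (variance over mean of UMIs) in their least variable library included Gm42418, Gpc6, mt-Atp6, mt-Co2, mt-Co3, Ptma, mt-Co1, mt-Cytb, Gpc3, Malat1, Gpc5, mt-Nd1, Mecom and Npm1. Gm42418 had Fano factors of 183, 86.5 and 147 in control, mutant 1 and mutant 2. Glypicans are cell-surface proteoglycans that bind growth factors, and Gpc6, Gpc3 and Gpc5 were at ranks 2, 9 and 11, with 48.9, 34.3 and 33.6 (Gpc6), 33.1, 18.4 and 18.4 (Gpc3) and 26.9, 19 and 17.0 (Gpc5) in control, mutant 1 and mutant 2. Mecom, a zinc finger transcription factor, had 17.5, 15.8 and 15.8. The median over genes was 1.34, 1.22 and 1.18. Mean levels differed between libraries beside the spread: Mecom averaged 8.08, 18.4 and 14.5 UMIs and Gpc6 30.2, 54.3 and 31.7 UMIs per thinned member. Median mitochondrial shares of the same libraries were 1.72%, 4.40% and 2.54%.

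Some patterning genes at intermediate frequency also differed between the mutant libraries. Irx3, a homeobox gene of the anterior limb, was detected in 36.6%, 40.4% and 21.5% of thinned members, and Irx5 in 13.4%, 24.9% and 12.4%, so mutant 2 lay apart from mutant 1 in both. Shox2, required for the proximal skeleton, was detected in 17.4%, 27.3% (21.9 to 33.4) and 30.3% (26.3 to 34.5), so the mutant intervals overlapped. Sox9 was detected in 8.14%, 20% (15.2 to 25.6) and 12.7% (9.96 to 16.0), also with overlap between the mutants. Erythroid barcodes gave at most 0.920% for these 4 genes.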
